A study of Mus musculus with 8 samples.

Results

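Leukocytes leave the blood by rolling along the endothelium, sticking to it and crossing it. Rolling rests on selectins, lectins of the endothelium that catch sugars on leukocyte glycoproteins. Firm arrest rests on members of the immunoglobulin superfamily on the endothelium, which bind leukocyte integrins, and crossing takes place at the junctions between endothelial cells. In quiet vessels of the heart the inducible molecules are low, and cytokines such as tumour necrosis factor and interleukin-1 are known to induce them through NF-kappaB.

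The account covers 8 genes of this cascade, chosen by name from the 55679 genes of the deposited table: Vcam1, Icam1 and Icam2 (ligands of leukocyte integrins), Sele and Selp (the endothelial selectins), Selplg (the selectin ligand on leukocytes), and Pecam1 and Vwf (a junction molecule and a stored blood protein that mark endothelium). All 8 were in the table and all 8 passed the filter on low values, as did 19364 genes in all.

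The 8 libraries were of left ventricles of male wild-type (WT) C57BL/6J mice, whose age the labels do not give. For 4 libraries, the vasoconstrictor hormone angiotensin II (ANG II) had been infused for 7 days at 1500 ng/kg/min from a pump under the skin, and for the 4 control libraries saline had been infused from a pump of that kind for 7 days. All hearts were flushed with saline to clear the blood before the tissue was taken, and RNA came from whole tissue. The labels give each library a title number but do not state that each came from a separate animal; the study's methods speak of biological replicates, but in a number other than that of the libraries analysed here, so p-values measure the spread between these samples.

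The libraries held 14455654 to 16564828 fragments, as read from the steps of the deposited values, and levels are given as FPKM, a fragment count divided by the length of the transcript and the size of the library. The tissue label held, with Myh6, the adult heavy chain of heart muscle, at 6618 to 10614 FPKM in all 8 libraries. Mitochondrially encoded genes took 26.3 to 26.95% of the fragments in control and 19.2 to 21.8% in ANG II. Across all tested genes the median log2 fold change was 0.15 as deposited and 0.0025 after median-of-ratios scaling, so changes of the 8 genes are also given relative to the median of all genes; those of other genes are as deposited and include this shift.

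All 8 genes had a higher mean in ANG II than in control, and 7 of the 8 rose, all but Sele. The P-selectin gene Selp rose most in proportion, from 0.253 to 1.40 FPKM, followed by Selplg from 4.90 to 13.8 FPKM and Vcam1 from 8.10 to 16.9 FPKM. Icam1, Icam2, Vwf and Pecam1 rose by 1.44 to 1.59 times. A gene was said to rise when its p-value from limma was under 0.05 after Benjamini-Hochberg correction across every gene in the fit and its log2 fold change above 0.5. Of all tested genes, 14.0% were called higher and 1.41% lower by this rule, 15.4% in all. This balance depends on the scaling of the libraries. Of the 2981 calls 2708 were higher as deposited, against 1671 of 2475 with median-of-ratios scaling and 1413 of 2399 with quantile normalization. Groups did not overlap at 7 of the 8 genes, while the ANG II group lay wholly above the control group at 28.7% of all tested genes. In bulk tissue, more cells of a type and more RNA per cell cannot be told apart.

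**Figure D1:**
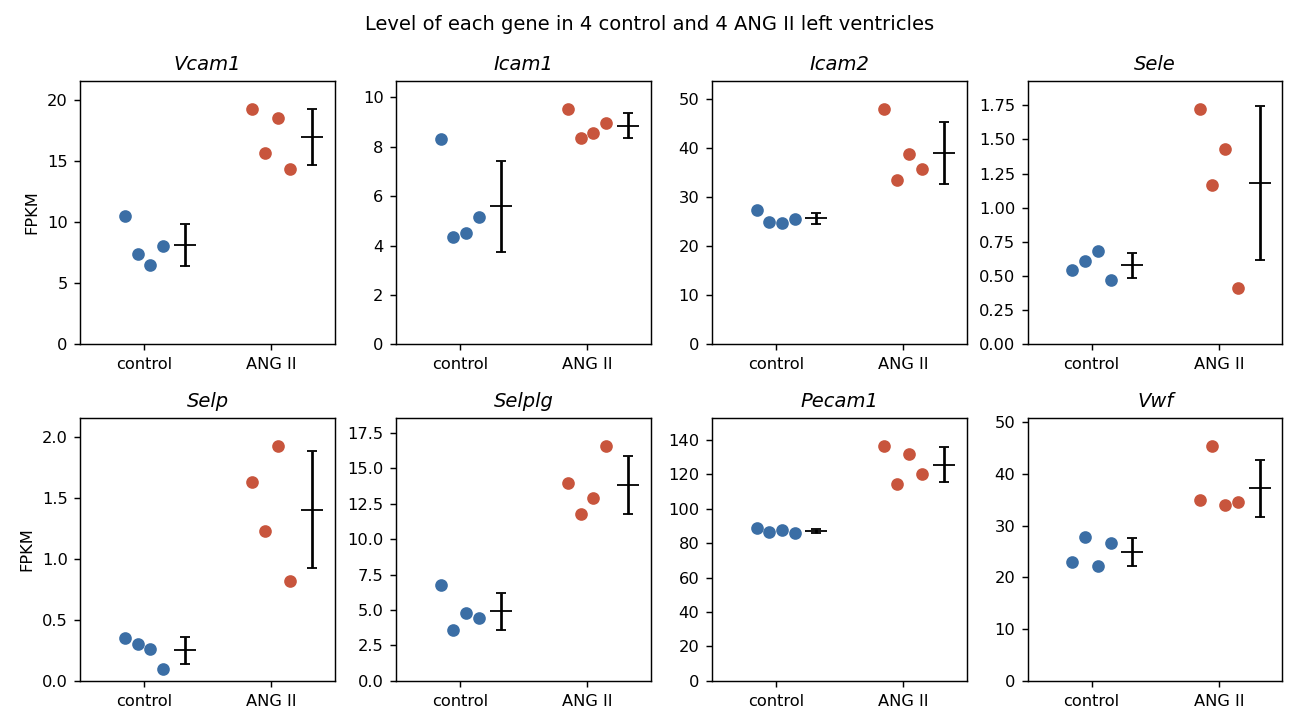
Level of each of the 8 genes in FPKM (vertical axes, starting at 0) in 4 control libraries (blue points) and 4 ANG II libraries (red points), with libraries 1 to 4 from left to right and the mean and SD in black. Every ANG II library lies above every control library except for Sele, where 1 ANG II library at 0.408 FPKM lies below all 4 controls.

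Selp encodes P-selectin, which endothelial cells and platelets store in granules and bring to the surface within minutes of activation. The gene (ENSMUSG00000026580) lies on chromosome 1 at 164115264 to 164150026 (GRCm38, plus strand). In control libraries 1 to 4 it was at 0.353, 0.299, 0.264 and 0.0952 FPKM, and in ANG II libraries 1 to 4 at 1.63, 1.23, 1.93 and 0.821 FPKM. The lowest ANG II library was thus above the highest control.

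These levels rest on few fragments. The 4 control libraries held 7, 6, 6 and 2 fragments of Selp and the ANG II libraries 34, 27, 40 and 18. Over the summed fragments, 21 in control and 119 in ANG II, the level in ANG II was 5.55 times that in control (exact 95% interval 3.47 to 9.30, for counting error only). The log2 fold change of Selp was 0.92 (SE 0.153, adjusted p = 0.00141 by limma) on the log2(FPKM + 1) scale, which understates the change of so low a gene, and 0.77 relative to the median of all genes. Voom on the recovered fragments gave Selp a log2 fold change of 2.42, with 18.9% of all genes called higher. Genes of the opposite strand, Gm16548 and Gm16587, lie over 14.1% of its exon bases, and since the use of strand was not stated, reads of Selp and of these genes cannot be told apart there.

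Sele encodes E-selectin, which endothelium makes afresh after cytokine stimulation. It lies next to Selp on chromosome 1, at 164048234 to 164057677 (ENSMUSG00000026582, GRCm38, plus strand). It stood at 0.546, 0.611, 0.684 and 0.471 FPKM in control libraries 1 to 4 and at 1.72, 1.16, 1.43 and 0.408 FPKM in ANG II libraries 1 to 4. In 3 of the 4 ANG II libraries Sele was above all controls, and ANG II library 4, with 19 fragments, was below all of them. Sele did not pass the test (log2 fold change 0.43, or 0.28 relative to the median of all genes, SE 0.187, adjusted p = 0.110 by limma; exact two-sided permutation p = 0.143). Without ANG II library 4 its log2 fold change was 0.62 (adjusted p = 0.00490 by limma), so that 1 library decided the call. The log2(FPKM + 1) scale understates the change of Sele as it does that of Selp. Over the summed fragments, 103 in control and 212 in ANG II, Sele was 2.02 times as high in ANG II as in control. The exact 95% interval was 1.59 to 2.58, for counting error only. Voom on all 8 libraries gave Sele a log2 fold change of 0.83, also without a call (adjusted p = 0.143).

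ANG II library 4 was also the lowest of its group for Selp and for Vcam1, at 0.821 and 14.3 FPKM, but the highest of all 8 libraries for Selplg. The same library held the highest Il1b, at 19.2 FPKM against 3.67 to 8.76 FPKM in the other ANG II libraries, and the lowest Hmox1 of its group, at 18.1 FPKM against 31.2 to 49.2 FPKM; the part of these differences in the Sele value was not tested.

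The 250 bases before the start sites of the selectin genes and of Icam1 are shown because promoters of these genes are textbook targets of cytokine signalling. They were taken from RefSeq (GRCm38.p6), which gave a promoter for 3 of the 8 genes; Vcam1, Icam2, Selplg, Pecam1 and Vwf were not matched. Capitals mark an ETS core (AGGAAG) or a TATA box (TATAAA) on either strand. Sele, chr1:164047984-164048233, plus strand, 5′ to 3′, then Selp, chr1:164115014-164115263, plus strand, and Icam1, chr9:21015690-21015939, plus strand:
Sele: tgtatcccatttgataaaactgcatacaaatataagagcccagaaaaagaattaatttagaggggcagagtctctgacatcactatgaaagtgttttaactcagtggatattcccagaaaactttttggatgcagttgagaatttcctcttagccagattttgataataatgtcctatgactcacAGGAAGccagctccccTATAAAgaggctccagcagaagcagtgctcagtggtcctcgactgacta
Selp: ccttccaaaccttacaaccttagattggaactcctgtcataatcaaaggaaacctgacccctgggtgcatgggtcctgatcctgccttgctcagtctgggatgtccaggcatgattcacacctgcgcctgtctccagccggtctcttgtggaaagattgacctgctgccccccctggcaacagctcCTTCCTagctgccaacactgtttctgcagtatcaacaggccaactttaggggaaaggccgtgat
Icam1: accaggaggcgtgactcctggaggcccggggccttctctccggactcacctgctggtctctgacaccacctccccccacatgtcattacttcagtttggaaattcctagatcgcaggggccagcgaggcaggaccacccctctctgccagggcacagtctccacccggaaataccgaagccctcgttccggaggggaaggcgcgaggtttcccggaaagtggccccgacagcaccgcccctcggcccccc

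In these windows Sele held an ETS core from 65 to 60 bases before its start and a TATA box from 49 to 44 bases before it. Selp held an ETS core on the opposite strand from 64 to 59 bases before its start. Icam1 held neither. The NF-kappaB consensus motif and the GATA motif (AGATAA) had no match in the 3 windows, which says only that these letters are not there; near matches were not sought. Of all 32851 promoter windows of this length in the table, 29.5% held the ETS core, 12.4% the TATA box, 9.99% the GATA motif and 7.25% the NF-kappaB motif.

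Vcam1 is the endothelial ligand of the integrin pair encoded by Itga4 and Itgb1, and fibroblasts and mural cells can make it too. The gene (ENSMUSG00000027962) lies on chromosome 3 at 116109949 to 116129688 (GRCm38, minus strand). It was at 10.5, 7.40, 6.48 and 8.06 FPKM in control libraries 1 to 4 and at 19.2, 15.7, 18.5 and 14.3 FPKM in ANG II libraries 1 to 4. Every ANG II value was above every control. The log2 fold change of Vcam1 was 0.99 (SE 0.137, adjusted p = 5.27e-04 by limma), or 0.84 relative to the median of all genes, and 95.8% of tested genes had a lower fold change.

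Icam1 and Icam2 are ligands of the integrins that carry the Itgb2 chain; Icam1 is inducible by cytokines, and Icam2 is made by resting endothelium. Icam1 (ENSMUSG00000037405, chromosome 9, 21015985 to 21028817, plus strand) was at 8.32, 4.34, 4.51 and 5.16 FPKM in control and at 9.52, 8.36, 8.57 and 8.98 FPKM in ANG II, in the order of the libraries. Control library 1 lay just under the lowest ANG II library, so the groups barely parted. The same library was the highest control for Vcam1 and Selplg and held the most RNA of general leukocyte genes among the controls, 190 FPKM in sum against 145 to 149.9 FPKM; the part of this in its Icam1 value was not tested. Icam1 had a log2 fold change of 0.62 (SE 0.162, adjusted p = 0.0152 by limma), or 0.47 relative to the median of all genes. Its value is uncertain, since Gm47079 on the opposite strand lies over 11.7% of its exon bases and 13.1% of its 50-base words occur in transcripts of other genes, counting both strands.

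Icam2 (ENSMUSG00000001029, chromosome 11, 106377656 to 106388075, minus strand) was at 27.4, 25.0, 24.8 and 25.6 FPKM in control and at 48.0, 33.6, 38.8 and 35.8 FPKM in ANG II. The controls were tight, with a coefficient of variation of 4.56%, and the ANG II libraries spread more widely, at 16.2%, with library 1 the highest. The log2 fold change of Icam2 was 0.57 (SE 0.0989, adjusted p = 0.00173 by limma), or 0.43 relative to the median of all genes. It fell to 0.47 without ANG II library 1, under the fold change threshold.

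Pecam1 joins endothelial cells at their borders and is also found on platelets and leukocytes. It was the most abundant of the 8 genes (ENSMUSG00000020717, chromosome 11, 106654217 to 106750628, minus strand). Control libraries held 88.6, 86.3, 87.9 and 86.1 FPKM of Pecam1, a coefficient of variation of 1.41%, and ANG II libraries held 136, 114, 132 and 120.02 FPKM. The difference was far larger than the spread of the controls but small as a fold: the log2 fold change was 0.52 (SE 0.0592, adjusted p = 1.75e-04 by limma), or 0.37 relative to the median of all genes, and 33.3% of tested genes had an adjusted p under 0.05 by limma in either direction. It was 0.48 without ANG II library 1 and 0.49 without ANG II library 3, both under the threshold of 0.5, so the call for Pecam1 rests on a value at the threshold and not on its spread.

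Vwf encodes von Willebrand factor, the multimeric protein that tethers platelets; endothelium stores it with P-selectin in Weibel-Palade bodies, and megakaryocytes and platelets carry it as well. The gene (ENSMUSG00000001930) lies on chromosome 6 at 125546774 to 125686679 (GRCm38, plus strand). It was at 22.9, 27.7, 22.2 and 26.7 FPKM in control and at 34.9, 45.4, 34.1 and 34.5 FPKM in ANG II. ANG II library 2 stood well above the other 3 ANG II libraries, which differed by less than 1 FPKM. The log2 fold change of Vwf was 0.56 (SE 0.106, adjusted p = 0.00296 by limma), or 0.41 relative to the median of all genes, and 0.46 without ANG II library 2, under the threshold.

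Several genes of platelets and their precursors were high in that library, and others were not. The list of 13 such genes summed to 97.4 FPKM in ANG II library 2, to 39.7 to 57.1 FPKM in the other ANG II libraries and to 23.6 to 32.6 FPKM in control. Among them Itga2b, which encodes the platelet chain of the fibrinogen receptor, was at 11.6 FPKM in ANG II library 2 and at 1.98 to 2.51 FPKM in the other ANG II libraries. The platelet chemokine gene Ppbp was at 15.5 FPKM against 0.751 to 1.95 FPKM there and up to 3.86 FPKM in control, and the platelet tubulin gene Tubb1 at 3.57 against 0.141 to 0.657 FPKM. Gp1ba, which encodes a chain of the platelet receptor for von Willebrand factor, was at 1.40 FPKM in ANG II library 2, below ANG II library 4 at 1.98 FPKM and control library 2 at 1.58 FPKM, and Itgb3 was at 3.51 FPKM there and at 2.70 to 3.35 FPKM in the other ANG II libraries. Itga2b, Ppbp, Tubb1 and Gp1ba were chosen after their values were seen. By the test 2 of 10 list genes rose, beside 14.0% of all tested genes. These were Itgb3 and Pf4, with log2 fold changes of 1.23 and 1.11, and macrophages and other cells express them as well. Gp1bb was listed at 0 in all libraries. Selp, which platelets also carry, was at 1.23 FPKM in ANG II library 2, below libraries 1 and 3. Pecam1 was lowest of its group in that library. What part platelet RNA has in the Vwf value was not tested.

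**Figure D2:**
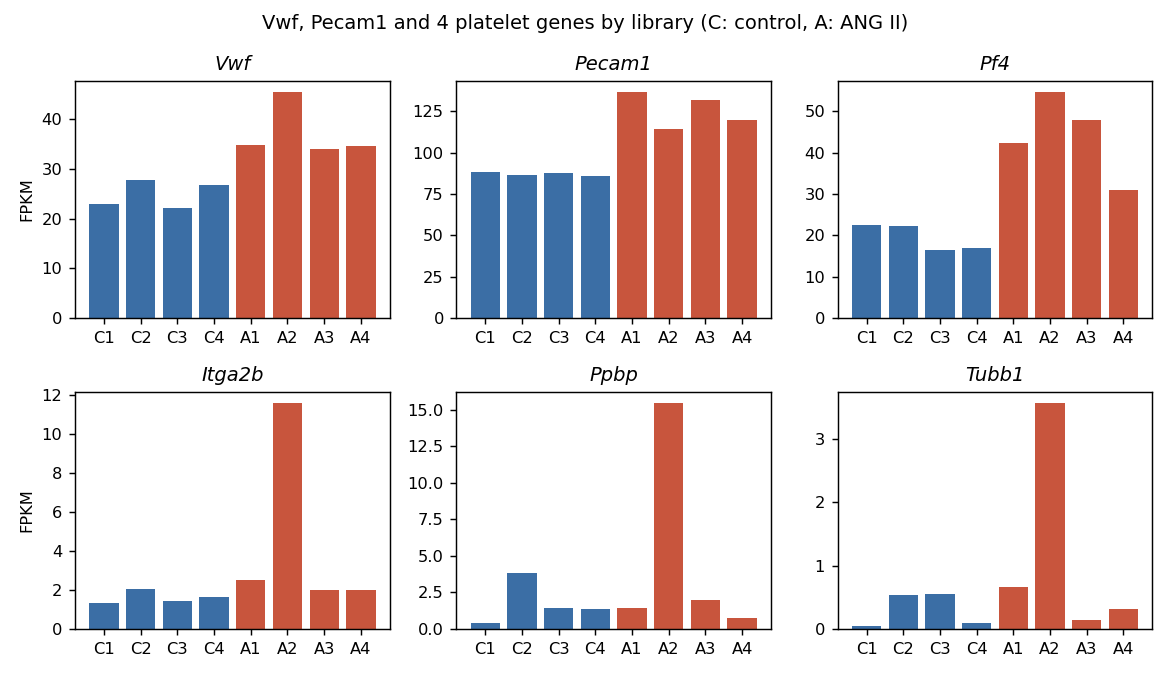
FPKM (vertical axes, starting at 0) of Vwf, Pecam1 and the platelet genes Pf4, Itga2b, Ppbp and Tubb1 as 1 bar per library, control (blue, C1 to C4) and ANG II (red, A1 to A4). ANG II library 2 has the highest Vwf, at 45.4 FPKM, and the highest Itga2b, at 11.6 FPKM, while its Pecam1, at 114 FPKM, is the lowest of the ANG II libraries.

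Selplg encodes the main ligand of P-selectin and is carried by leukocytes. It had the highest fold change of the 8 genes in the test (ENSMUSG00000048163, chromosome 5, 113818536 to 113832644, minus strand). Control libraries held 6.75, 3.62, 4.81 and 4.43 FPKM of Selplg and ANG II libraries 14.0, 11.8, 12.9 and 16.6 FPKM, with a wide gap between the groups. Its log2 fold change was 1.34 (SE 0.157, adjusted p = 1.99e-04 by limma), or 1.20 relative to the median of all genes, and 98.1% of tested genes had a lower one.

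Leukocyte markers moved with Selplg. Of 16 general leukocyte genes, 14 rose, beside 14.0% of all tested genes. The list's median log2 fold change was 1.42 against 0.15 over all genes tested. Among these genes Cd52, Fcer1g and Cd68 rose most, by 1.89, 1.74 and 1.71. Their summed level was 145 to 190 FPKM in control, highest in control library 1, and 406 to 518 FPKM in ANG II. Set against the mean log2 level of these genes in the same library, Selplg did not part the groups: it stood at 0.08 ± 0.170 in control and at 0.0020 ± 0.281 with infusion (log2, SD, n = 4 per group; exact two-sided permutation p = 0.629). The difference was -0.08 on the log2 scale, and it ranged from -0.27 to 0.06 with the median of the list in place of the mean or a pseudocount of 1.

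The next comparison asked how far the genes changed relative to other endothelial transcripts. Each gene was set against the mean log2 FPKM of 18 genes that mark endothelial cells as a whole, which removes the scaling of the library. The markers themselves stood at 5.03 to 5.19 in control and at 5.30 to 5.47 in ANG II (mean log2 FPKM; exact two-sided permutation p = 0.0286, the smallest that 4 against 4 libraries allow). Of the 18 markers 3 rose, near the share of all tested genes called higher, 14.0%. They were Ecscr, Sox17 and Cd93, with log2 fold changes of 1.13, 0.74 and 0.51. Relative to these markers 5 of the 8 genes still separated the groups with higher values in ANG II, at that smallest p-value each and with no adjustment over the 8 tests, beside 12.5% of all tested genes on the same measure.

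Selp was 4.83 times as high per endothelial marker level in ANG II as in control, a log2 difference of 2.27 (from -7.23 ± 0.800 in control to -4.96 ± 0.458, SD, n = 4 per group). The size for so low a gene depends on the pseudocount: with 1 FPKM added the log2 difference of Selp was 0.65, still without overlap, and without control library 4 it was 1.88. Selplg was 2.36 times and Vcam1 1.73 times as high. For Icam2 and Pecam1 the ratios were 1.24 and 1.18 times, and with the median of the markers in place of the mean their groups overlapped (exact two-sided permutation p = 0.0857 each). For Icam1, Vwf and Sele the groups overlapped, at 1.35, 1.22 and 1.49 times (exact two-sided permutation p = 0.114, 0.171 and 0.229). Icam1 overlapped because of control library 1, at -2.13 against -2.98 to -2.66 in the other controls and -2.37 to -2.13 in ANG II.

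**Figure D3:**
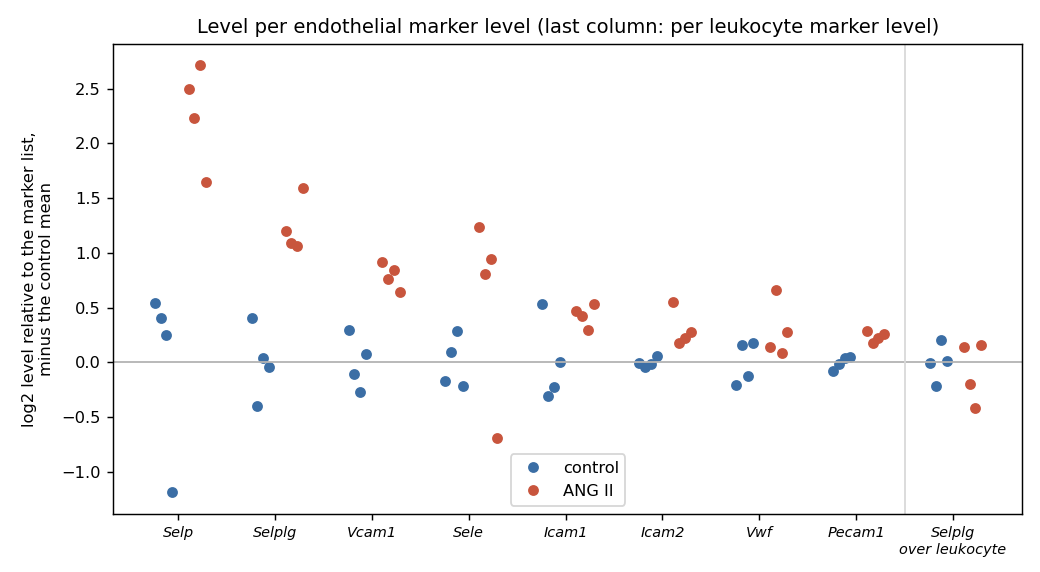
Log2 level of each gene relative to the mean of 18 endothelial markers in the same library, minus the mean of the controls (vertical axis), with control libraries in blue and ANG II libraries in red; the last column sets Selplg against 16 leukocyte genes. Selp, Selplg and Vcam1 lie apart from the controls, by 2.27, 1.24 and 0.79 on average, while Selplg per leukocyte level overlaps.

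Ratios between the 8 genes were compared to ask whether some changed more than others, again free of library scaling. Of 28 pairs, 11 had ratios that did not overlap between the groups, each at the smallest exact p of 0.0286; adjusted by the Benjamini-Hochberg method over the 28 pairs, this became 0.0727, so no pair passed. Selp gained on Vcam1, Icam1, Icam2, Sele, Pecam1 and Vwf without overlap, by 1.48 on the log2 scale (SE 0.463) on Vcam1 and by 2.03 (SE 0.480) on Pecam1. Selplg gained on Icam1, Icam2 and Pecam1, by 0.80 to 1.00, and Vcam1 on Icam2 and Pecam1, by 0.48 and 0.55. Among Icam1, Icam2, Pecam1 and Vwf the log2 ratios differed by 0.02 to 0.19, within their spread. Vcam1 and Icam1 differed by 0.36 (SE 0.132), with overlap (exact two-sided permutation p = 0.0571).

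Some scalings of the libraries changed the calls and another did not. With every library brought to a common total of FPKM all 7 calls stayed, Icam1, Icam2, Pecam1 and Vwf at log2 fold changes of 0.63, 0.59, 0.53 and 0.57, beside 14.6% of all genes called higher. With median-of-ratios scaling 3 of the 8 genes kept a call, Selplg, Vcam1 and Selp, with log2 fold changes of 1.14, 0.78 and 0.83, beside 8.65% of all genes called higher. Under quantile normalization the called genes were again these 3 (1.07, 0.73 and 0.75), beside 7.30% of all genes, as they were when mitochondrially encoded genes and the 10 most abundant genes were left out, beside 10.2% of all genes. All 8 genes still had positive fold changes in each of these. Groups still parted at 6 of the 8 genes with median-of-ratios scaling, all but Icam1 and Sele, beside 15.3% of all genes with ANG II wholly higher. Icam2 and Pecam1 kept an adjusted p-value under 0.05 by limma in the last 3 scalings and lost the call to the fold change threshold, at 0.29 to 0.43. Vwf was at 0.34 with median-of-ratios scaling (adjusted p = 0.0509 by limma), 0.36 with quantile normalization (adjusted p = 0.0347) and 0.41 without mitochondrially encoded and top genes (adjusted p = 0.0188). Icam1 was at 0.42, 0.33 and 0.49 in the same order (adjusted p = 0.0722, 0.137 and 0.0475 by limma).

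**Figure D4:**
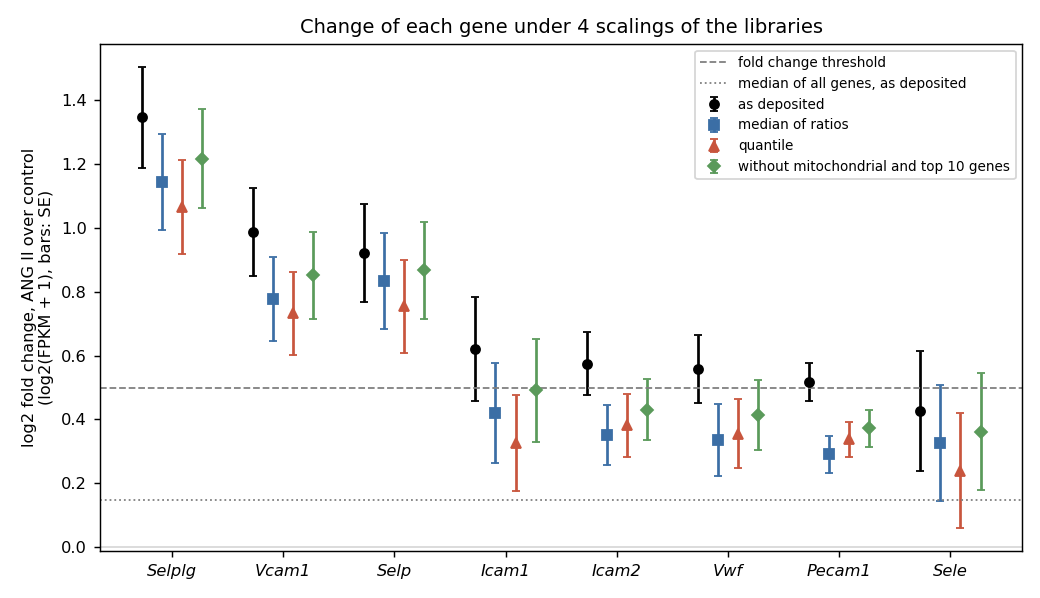
Log2 fold change of each gene on the log2(FPKM + 1) scale (points, with SE as bars) as deposited and under 3 other scalings of the libraries; the dashed line is the fold change threshold of 0.5 and the dotted line the median of all genes as deposited, 0.15. Selplg, Vcam1 and Selp stay above the threshold under all 4 scalings; of these 4, Icam1, Icam2, Vwf and Pecam1 are above it only as deposited.

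The levels of the 8 genes kept nearly the same order in both groups. In control the order of mean FPKM was Pecam1, Icam2, Vwf, Vcam1, Icam1, Selplg, Sele and Selp. Icam2 and Vwf, at 25.7 ± 1.17 and 24.9 ± 2.72 FPKM, did not differ beyond their spread. The ranges of Vcam1 and Icam1 overlapped, at 8.10 ± 1.70 and 5.58 ± 1.86 FPKM, though Vcam1 was the higher in all 4 libraries, and those of Icam1 and Selplg overlapped, at 5.58 ± 1.86 and 4.90 ± 1.33 FPKM (SD, n = 4 per group). In ANG II, Selplg at 13.8 ± 2.05 FPKM stood above Icam1 at 8.86 ± 0.511 FPKM in all 4 libraries, and Selp at 1.40 ± 0.482 FPKM above Sele at 1.18 ± 0.563 FPKM in 3 of 4 (SD, n = 4 per group); Icam2 and Vwf, Vcam1 and Selplg, and Selp and Sele had ranges that overlapped. Comparisons between genes depend on the length used. The deposited values divide by the mean length of each gene's annotated transcripts, 2663 bases for Vwf, whose longest transcript has 8834 bases; divided by the longest transcripts, the ANG II means were 11.2 FPKM for Vwf, 11.2 for Vcam1, 8.28 for Icam1, 5.99 for Selplg, 1.18 for Sele and 0.560 for Selp, so that Selplg and Selp no longer stood above Icam1 and Sele.

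On the leukocyte side of the same contacts, 10 of 12 counter-receptors of the endothelial molecules rose, beside 14.0% of all tested genes. The list's median log2 fold change was 0.91. Itgax, Spn and Itgb2 rose most, by 1.49, 1.33 and 1.31. Itgb2, the chain shared by the integrins that bind Icam1 and Icam2, was at 3.73 to 8.04 FPKM in control and 14.8 to 18.6 FPKM in ANG II. Its partners Itgal and Itgam rose by 0.86 and 0.81, Itgal with overlap between the groups. Itga4, the partner of Itgb1 in binding Vcam1, was at 1.14 to 2.81 FPKM in control and 3.50 to 5.92 FPKM in ANG II and rose by 0.97, while Itgb1, made by most cells, rose by 0.57. Itga9, another integrin chain that binds Vcam1, was not called (log2 fold change 0.13, adjusted p = 0.410 by limma, named after its value was seen). Glg1, a ligand of E-selectin, was not called (log2 fold change 0.16, limma adjusted p = 0.0538).

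Of 11 tested enzymes that build selectin ligands, 1 rose, B4galt5, by 0.90, and the median log2 fold change was 0.24. The fold change threshold set this count: 7 of the 11 had an adjusted p under 0.05 by limma, and at 8 the ANG II group lay wholly above control, beside 28.7% of all tested genes. With a pseudocount of 0.1 or with voom 3 were called, and 2 with a common total or without control library 1, control library 2 or ANG II library 4. Fut7, a fucosyltransferase of leukocytes, was below the filter. Of 16 tested adhesion and junction genes of the endothelium, 3 rose, beside 14.0% of all tested genes. Cdh5, Cldn5 and Esam of this list are also among the 18 markers. Mcam, Alcam and Cd34 rose, with log2 fold changes of 0.96, 0.90 and 0.69, and the list's median was 0.26. With no fold change threshold 11 of the 16 were called, and 9 of the 18 endothelial markers in place of 3, beside 33.3% of all tested genes. Among the 11, Jam2 lay wholly lower in ANG II (log2 fold change -0.16, adjusted p = 0.0137 by limma, named after its value was seen). Madcam1, Glycam1 and Icam4, the addressins of gut and lymph node vessels and a red cell molecule, were listed at 0 in all 8 libraries. Genes of the granules that hold Vwf and Selp rose at 6 of 14, beside 14.0% of all tested genes. Cd63, Plat and Rab27a rose most of all, with 1.05, 0.81 and 0.70. Cd63 is a membrane protein of lysosomes in most cells. With median-of-ratios scaling 3 of these 14 granule genes were called and with quantile normalization 2, beside 8.65% and 7.30% of all genes called higher. Without control library 2, control library 3 or ANG II library 2, 4 were called each time. The markers of endothelial subtypes rose at 6 of 17, beside 14.0% of all tested genes. Ccl21a, Gja4 and Plvap led with 1.01, 0.81 and 0.75, of lymphatic, arterial and venous or fenestrated endothelium. The kinds were mixed. Arterial Hey1 and Sema3g and venous Nr2f2 also rose, by 0.59, 0.56 and 0.58, while arterial Gja5 and Bmx were not called at 0.32 and 0.14. Lymphatic Flt4 and venous Ephb4 lay wholly higher in ANG II without a call, at 0.46 and 0.41. Prox1, listed as a lymphatic gene, lay wholly lower (log2 fold change -0.40, adjusted p = 0.0206 by limma, not past the fold change threshold). Lyve1, listed likewise, was at 0.05. Which cells of the ventricle carry Prox1 and Lyve1 RNA was not tested. Capillary Car4 and Rgcc were at -0.43 and -0.36 and capillary Gpihbp1 and Aplnr at 0.28 and 0.35, all without a call. These 13 genes were chosen after their values were seen. Ccl21a is uncertain, since near-identical copies of it exist in the mouse genome.

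Of the 22 tested cytokine and NF-kappaB genes, 9 rose and 0 fell under limma's call, beside 14.0% and 1.41% of all tested genes. The list's median log2 fold change was 0.43. With median-of-ratios scaling or quantile normalization 5 were called, beside 8.65% and 7.30% of all genes called higher. Il1b and Tnfrsf1b rose most, by 1.38 and 1.36, and Il6 by 0.98. Il1b overlapped between the groups, at 1.19 to 4.71 FPKM in control and 3.67 to 19.2 FPKM in ANG II. Il6 was listed at 0 in 2 control libraries and reached 0.217 FPKM in another, against 0.540 to 1.55 FPKM in ANG II, so its fold change depends on the pseudocount. Tnf itself was at 0.0421 to 0.357 FPKM in control and 0.0426 to 0.851 FPKM in ANG II and was not called.

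Among 12 tested regulators of endothelial state, Klf2 fell, the only list gene of this group to do so. Klf2, a factor induced by blood flow and known to restrain adhesion molecules, was at 42.8 to 54.5 FPKM in control and 25.5 to 33.8 FPKM in ANG II, with a log2 fold change of -0.72 (SE 0.101, adjusted p = 5.76e-04 by limma). Hmox1 and Elk3 rose, by 2.10 and 0.63. Of 13 genes of stromal and mural cells, which can also make Vcam1, 8 rose, beside 14.0% of all tested genes. Col1a1, Col1a2 and Lum rose most, by 3.25, 3.13 and 1.76. On this list 1 gene fell, Abcc9, by 0.55 on the log2 scale, and which cells of the ventricle carry its RNA was not tested. Mural genes were mixed: Cspg4 and Pdgfrb rose, by 0.71 and 0.62, Rgs5 lay wholly higher without a call, at 0.24 (adjusted p = 0.00451 by limma), and Acta2, Kcnj8 and Myh11 were not called at -0.20, -0.14 and 0.04. Abcc9 and these 6 were named after their values were seen. The list's summed level was 936 to 1133 FPKM in control and 2341 to 2611 FPKM in ANG II, and most of this difference was collagen, Col1a1 with means of 64.7 and 608 FPKM and Col1a2 with 67.2 and 588 FPKM. With quantile normalization 5 genes of this list were called in either direction in place of 9. What part stromal cells or leukocytes have in the levels of Vcam1 and Icam1 was not tested.

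**Figure D5:**
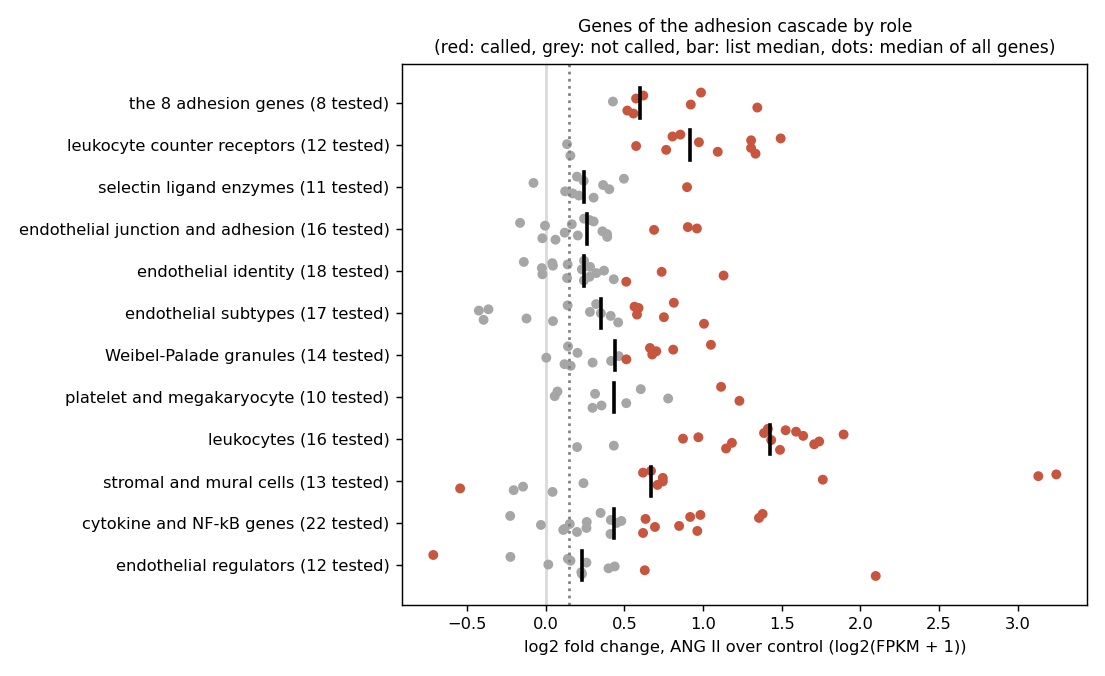
Log2 fold change on the log2(FPKM + 1) scale (horizontal axis) of every tested gene of each list, called genes in red and others in grey, with the list median as a black bar and the median of all genes, 0.15, as a dotted line. Leukocyte genes and counter-receptors have medians of 1.42 and 0.91, and the endothelial identity list 0.24.

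Genes whose profiles over the 8 libraries were most like those of the 8 genes were sought among 12826 named genes whose mean reached 1 FPKM, by the root mean square difference of log2(FPKM + 1) after each gene was centred on its own mean. Nearest to Vcam1 were Il17ra and Tagln2 (0.0921 and 0.0978 log2 units), to Selp Cfl1 and Pla1a (0.0794 and 0.0953), and to Selplg Il10ra and Tnfrsf1b (0.0638 and 0.0958), receptors of interleukin-10 and of tumour necrosis factor. Icam1 was nearest to Esm1 and Dlg4 (0.116 and 0.118) and Icam2 to Sh3bgrl2 and Pld2 (0.0582 and 0.0600). Pecam1 was nearest to Sdccag8 and Maml2 (0.0346 and 0.0463) and Vwf to Ddr1 and Kif5c (0.0447 and 0.0704). On this scale genes of very different abundance can lie close, and likeness over 8 libraries in 2 groups mainly restates the size of the change.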

How the data were processed

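RNA-seq libraries of left ventricles of mice, 4 control and 4 ANG II, were compared, grouped and numbered by the titles in the labels. The authors deposited 1 table of FPKM values, in which each library has its own column; the submitters' processing notes name HISAT, Bowtie2 and RSEM without versions. Genome build, annotation release and use of strand are not given in the sources used here. Positions and transcript lengths come from GENCODE M21 (GRCm38), matched by gene ID.

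Multiplied by the mean transcript length, low values were multiples of a fixed step in each library (98.4 to 98.6% of values under 60 fragments within 0.1 of a whole number), which gave the fragments per library. Intervals cover counting error only.

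The main test was limma 3.58.1 in R 4.3.3 (lmFit, eBayes with trend) on log2(FPKM + 1) over the 19364 genes whose mean reached 0.1 FPKM, without a block. Two-sided p-values were corrected by Benjamini and Hochberg's method across every gene in the fit; calls needed an adjusted p under 0.05 and an absolute log2 fold change above 0.5. Limma and these thresholds are those of the study; base 2, pseudocount and filter were choices of this work. For single values, all 70 allocations of the libraries gave an exact two-sided permutation p, with Python 3.11.15. The limma step was tested on simulated data.

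The text names the 8 genes, their direct partners, up to 3 called genes of each list and the 2 nearest profiles of each gene; other names were chosen after their values were seen. The nearest profiles of Sele and 1 partner gene are not reported here. The genes and lists were chosen with earlier results of these data known. Alternatives changed the pseudocount, filter, scaling, variance trend, block, fold threshold, marker summary and libraries; voom on recovered fragments and the longest transcripts were added after the data had been seen.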

Additional observations from a re-analysis of the deposited data

Results flagged for a closer look

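1 of the 16 groups of 4 values (8 genes in 2 groups) held a library far from the rest. Vwf in ANG II library 2 was at 45.4 FPKM, and its gap to the next library took up 0.927 of the range of the group, above the limit of Dixon's test for 4 values. Chance flags about 1 in 20 groups. The platelet genes that were high in the same library are given beside Vwf in the report, and their part in the value was not tested.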

How the results depend on the processing

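Of the 8 genes, 7 were called as reported. With median-of-ratios scaling, quantile normalization, or mitochondrially encoded and top genes left out, 3 were called, with a common total 7, and above an absolute log2 fold change of 1 only 1, Selplg. With 1 library left out, 5 to 8 were called. The number of all genes called was 2981, 6447 with no fold change threshold, 795 above an absolute log2 fold change of 1, and 2763 to 3109 with 1 library left out. It was 2475 with median-of-ratios scaling, 2399 with quantile normalization and 2512 without mitochondrially encoded and top genes. Of the genes on the lists, 66 were called, or 28 when the absolute log2 fold change had to exceed 1, 52 with median-of-ratios scaling, 48 with quantile normalization, and 62 to 70 with 1 library left out. From as deposited to quantile normalization, calls went from 6 to 2 on the Weibel-Palade list, from 9 to 5 on the cytokine list and on the stromal and mural list, and from 3 to 1 on the endothelial identity list. Groups did not overlap at 7 of the 8 genes, and at 7 to 8 with 1 library left out. Relative to endothelial markers 5 of 8 genes parted the groups, 3 with the median of the markers, and 5 to 6 with 1 library left out. On the weaker condition that ANG II is higher at every library number, 6 of the 8 passed, Vwf in addition. Selplg per leukocyte level differed by -0.16 to 0.04 with 1 library left out. Of 28 ratios 11 parted the groups, 7 with a pseudocount of 1, and 11 to 15 with 1 library left out; without ANG II library 4 the number was 15. Same-numbered libraries did not deviate together (correlation across genes from -0.03 to 0.06). With 4 libraries per group this cannot show whether the numbers mark pairs, and the labels do not say. With the replicate number as a block, 7 of the 8 genes and 2968 of all genes were called, and no call of the 8 genes changed. No direction of the 8 genes turned under the alternatives. Where a call was lost the cause was not tested, beyond the higher threshold and the fewer libraries themselves. Selp, at 2 to 40 fragments per library, and Sele, at 19 to 76, are limited by depth.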
